A study of Mus musculus with 8 samples.

Results

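The 9 major histocompatibility genes described here were H2-K1, H2-D1, H2-Q4, H2-T23 and B2m of the class I pathway and H2-Aa, H2-Ab1, H2-Eb1 and Cd74 of the class II pathway, in mouse skeletal muscle. The genes were chosen by name, and all non-control probes were taken whose accession mapped to 1 of the 9 symbols. This gave 11 probes on 21 spots, out of 20972 named genes, 55681 probes and 59305 spots. H2-K1 and H2-Ab1 had 2 probes each, and H2-K1 probe A_51_P198434 (called probe 1 below) was printed 10 times. H2-Q4 was selected on its measured ratios of mutant to wild type, because 1 pair ran against the others, so its mutant to wild type values are given as a description with no test. The 9 genes were named with results of these data known.

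RNA came from the gastrocnemius, and within this calf muscle from its white, fast-twitch portion, in 4 mice homozygous for a mutation of Pus1 and 4 wild type mice. Pus1 encodes a pseudouridine synthase that modifies tRNA. All 8 animals were on a C57BL/6J background after 5 backcross generations and were 14 to 16 weeks old. Each of 4 arrays read in Cy3 and Cy5 paired a mutant with the wild type animal that had its number and sex, with pairs 1 and 2 male and pairs 3 and 4 female. The mutant carried Cy5 in pairs 1 and 3 and Cy3 in pairs 2 and 4, so each sex and each genotype held both dyes. Each array held animals of 1 sex, so a difference between the sexes cannot be told apart from a difference between arrays. The labels do not say which part of the transcript the mutation alters. A C57BL/6J mouse carries the b haplotype of this region, and the labels do not name the strain in which the mutation was made.

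Class I molecules display peptides from inside the cell to CD8+ T cells and to natural killer cells. Each consists of a polymorphic heavy chain (H2-K1, H2-D1) or a less variable one (H2-Q4, H2-T23) bound to beta-2 microglobulin, the product of B2m. Class II molecules display peptides from engulfed material to CD4+ T cells, pair an alpha with a beta chain, and are held in the cell by the invariant chain, the product of Cd74, until peptide is loaded. Nearly all nucleated cells make class I, whereas class II is made mainly by dendritic cells, macrophages and B cells. In muscle, class I is low on healthy fibres and class II belongs mostly to cells lying between them.

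The promoters of 5 members are shown as background on their sequence. Within each pair, class I probes other than H2-Q4 had similar ratios, and so did class II probes, as described below. The part of promoter sequence in these ratios was not tested. Each window holds the 250 bases before the most downstream start listed by RefSeq in GRCm38.p6, written 5′ to 3′ on the gene's strand. The windows lie at chr17:34000334-34000583 on the minus strand for H2-K1, chr17:35262844-35263093 on the plus strand for H2-D1 and chr17:35379367-35379616 on the plus strand for H2-Q4. Those of B2m and H2-Aa lie at chr2:122147437-122147686 on the plus strand and chr17:34287824-34288073 on the minus strand. Capitals mark the motifs that were searched on both strands: CCAAT (the Y box), TGACG (the core of the X2 box), GAAANNGAA (within an interferon-stimulated response element) and GGGANTCCC (within the NF-kB site of enhancer A, which reads the same on both strands). The arrays were designed on mm9, so the coordinates belong to the RefSeq table alone.
H2-K1: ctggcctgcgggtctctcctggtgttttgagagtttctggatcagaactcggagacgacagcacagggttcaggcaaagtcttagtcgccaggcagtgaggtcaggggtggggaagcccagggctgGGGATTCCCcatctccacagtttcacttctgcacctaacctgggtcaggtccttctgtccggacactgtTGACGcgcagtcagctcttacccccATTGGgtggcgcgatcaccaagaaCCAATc
H2-D1: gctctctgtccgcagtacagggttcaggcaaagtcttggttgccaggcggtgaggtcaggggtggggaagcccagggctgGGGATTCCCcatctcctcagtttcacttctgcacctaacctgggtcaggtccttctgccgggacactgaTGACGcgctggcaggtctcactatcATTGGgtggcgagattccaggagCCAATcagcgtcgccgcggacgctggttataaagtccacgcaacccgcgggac
H2-Q4: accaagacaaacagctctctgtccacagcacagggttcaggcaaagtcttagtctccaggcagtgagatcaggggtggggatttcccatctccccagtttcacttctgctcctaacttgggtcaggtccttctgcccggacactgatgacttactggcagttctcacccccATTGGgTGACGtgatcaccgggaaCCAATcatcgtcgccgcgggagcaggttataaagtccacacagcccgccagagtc
B2m: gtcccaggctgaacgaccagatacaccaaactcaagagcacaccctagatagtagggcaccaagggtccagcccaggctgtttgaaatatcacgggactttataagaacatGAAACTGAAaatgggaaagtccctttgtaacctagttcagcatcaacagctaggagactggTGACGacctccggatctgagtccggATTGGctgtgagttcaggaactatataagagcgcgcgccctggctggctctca
H2-Aa: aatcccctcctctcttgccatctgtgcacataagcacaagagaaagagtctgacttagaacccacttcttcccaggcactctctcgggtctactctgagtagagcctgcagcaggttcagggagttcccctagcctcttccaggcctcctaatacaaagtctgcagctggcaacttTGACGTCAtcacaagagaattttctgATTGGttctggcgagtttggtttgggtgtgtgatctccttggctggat

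Windows of 7 genes were searched, these 5 with H2-T23 and H2-Eb1. H2-Ab1 had no window in the table and Cd74 was left out of the search, so class II is covered only in part. CCAAT occurred in all 7, against 33.9% of 32841 windows of the same length in the table. TGACG occurred in 5 of the 7 and in 17.8% of all windows, and in H2-Aa it occurred on both strands as the overlapping palindrome TGACGTCA. In H2-Q4 TGACG lay at −73 to −69, between ATTGG at −79 to −75 and the start site. In H2-K1, H2-D1, B2m and H2-Aa it lay upstream of ATTGG. The H2-Q4 match thus shares the letters of the X2 box core but not its place in those genes. GAAANNGAA was found in B2m and H2-T23 and in 7.13% of all windows. Only these exact letters were searched, so an interferon-stimulated response element that departs from them was not counted in any window. GGGANTCCC was found in H2-K1 and H2-D1 and in 209 windows in all (0.636%). With 1 more base on each side, its 11 bases read GGGGATTCCCC in both genes. The closest 11 bases in the H2-Q4 window read GGGGATTTCCC, which differ from those of H2-K1 by C8T, counted from 1 at the 5′ end with the base of H2-K1 first.

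All 11 probes were well above background in 8 of 8 animals, and no spot of them was flagged as saturated (0 flags). Per animal, 38.0% to 46.5% of spots cleared that mark, and the 23098 probes tested included those of 11893 named genes. All 12 fast muscle markers were tested, with a summed level of 2405652 to 3167947 units in mutants and 2347096 to 3042778 units in wild type animals. Pus1 in mutants lay below wild type in all 4 pairs, with log2 ratios between −1.66 and −1.31 and a limma adjusted p of 0.0786. Mutant 1 stood apart most from the other animals over all probes: its median absolute deviation from the median of all animals was 0.192 on the log2 scale, against 0.079 to 0.131 for the other 7 animals. Values without mutant 1 or without pair 1 are given for the ranges and correlations of H2-Q4 and for the fitted ratios and correlations of the class II genes. Levels below are log2 normalized intensities with the probe's dye effect removed, and they are comparable between animals for 1 probe but not between probes. Pair values are log2 ratios of mutant over wild type on 1 array with no dye correction. The number of arrays, 4, limits the precision.

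Neither class differed between mutants and wild type animals by more than the spread between pairs. No probe of any gene passed an adjusted p of 0.05 in the limma fit of the genotype difference (0 of 23098, 0%), and 774 probes (3.35%) had an unadjusted p under 0.05 there. None of the 10 member probes tested, those other than H2-Q4, was among the 774, their smallest unadjusted p in that limma fit being 0.252 (n = 4 pairs). The adjusted p was 1 for each of the 10. The levels of the mutant and wild type groups overlapped for these 10 probes, against 2.09% of all probes whose groups did not overlap. The groups overlapped for H2-Q4 too, but its choice for pairs of opposite sign had fixed this in advance. In bulk tissue, fewer cells of a type and less RNA per cell cannot be told apart, and this holds for every value of a cell-restricted gene below.

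**Figure D1:**
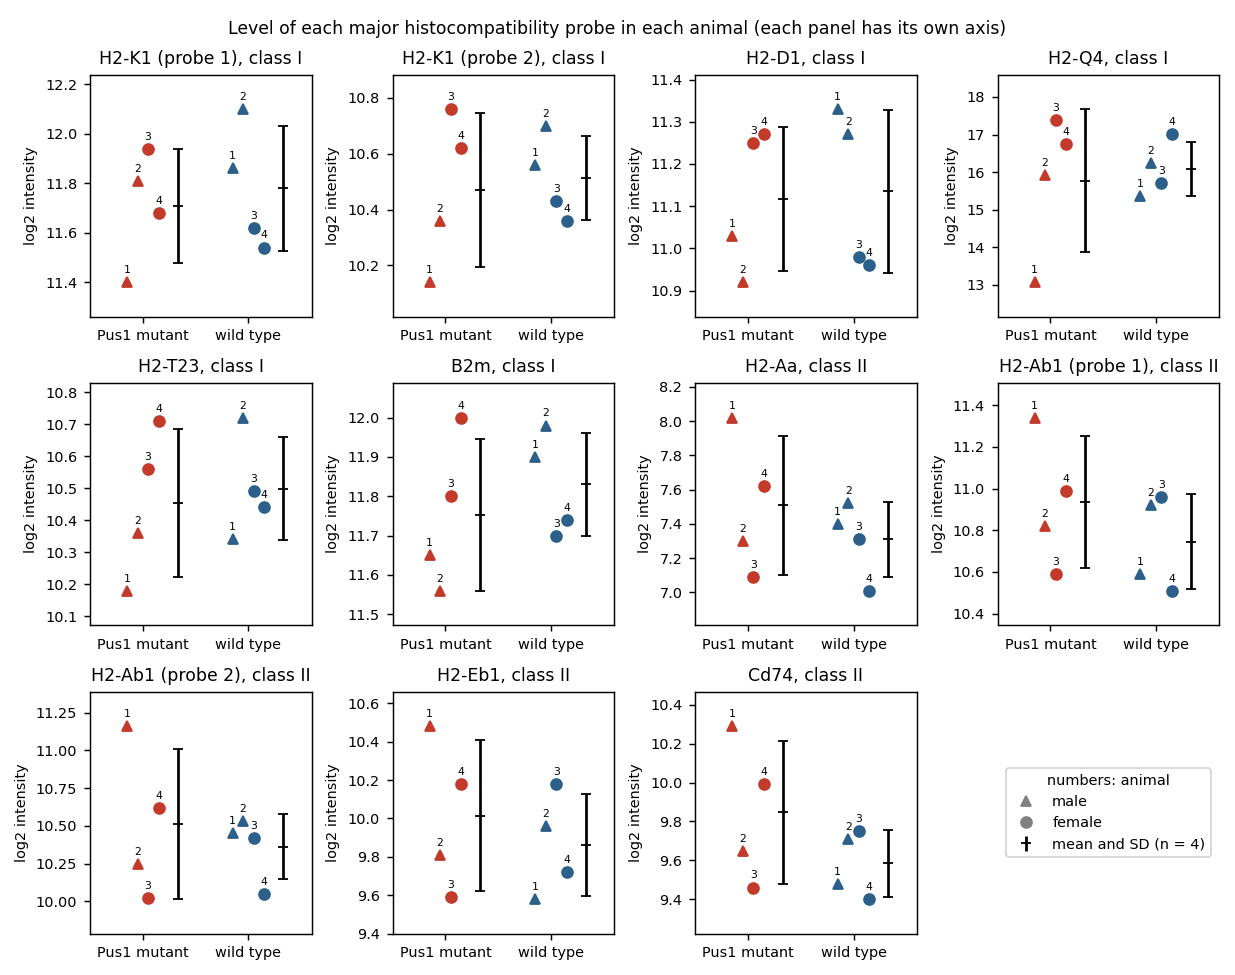
Log2 normalized intensity of each of the 11 probes in each animal, Pus1 mutants in red and wild type in blue, with triangles for males, circles for females, animal numbers beside the points, and the mean and SD of each group (n = 4) to the right. Groups overlap in every panel, and mutant 1 is the highest animal in all 5 class II panels and the lowest for H2-Q4, at 13.07.

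Among the class I heavy chains, H2-K1, a classical one expressed on nearly all cells, had levels of 11.40, 11.81, 11.94 and 11.68 in mutants 1 to 4 by probe 1, against 11.86, 12.10, 11.62 and 11.54 in wild type animals 1 to 4. The highest animal was wild type 2 and the lowest mutant 1, and the groups overlapped. The fitted log2 ratio was −0.07 (SE 0.16). Its other probe, A_55_P2049647 (probe 2), gave 10.14, 10.36, 10.76 and 10.62 in mutants and 10.56, 10.70, 10.43 and 10.36 in wild type animals, with a fitted ratio of −0.04 (SE 0.17). The probes of H2-K1 followed each other over the 8 animals (r = 0.83).

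H2-D1, the other classical heavy chain of this haplotype, had levels of 11.03, 10.92, 11.25 and 11.27 in mutants, against 11.33, 11.27, 10.98 and 10.96 in wild type animals. Male mutants and female wild type animals were at the low end, female mutants and male wild type animals at the high end, and the means were 11.12 ± 0.17 in mutants and 11.13 ± 0.19 in wild type animals (SD, n = 4 each). H2-T23 encodes Qa-1, a non-classical heavy chain that presents leader peptides of other class I chains to natural killer cells. It had levels of 10.18, 10.36, 10.56 and 10.71 in mutants and 10.34, 10.72, 10.49 and 10.44 in wild type animals, with a fitted ratio of −0.05 (SE 0.13). B2m, the light chain shared by all class I molecules, had levels of 11.65, 11.56, 11.80 and 12.00 in mutants and 11.90, 11.98, 11.70 and 11.74 in wild type animals. Its fitted ratio was −0.08 (SE 0.14), and its male mutants were the lowest of the 8 animals. The fitted ratio of H2-D1 was −0.02 (SE 0.16).

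The ratios of these 5 class I probes split by sex. In male pairs 1 and 2 the mutant was lower for 5 of 5 probes, by −0.47 to −0.03 in pair 1 and −0.54 to −0.28 in pair 2. In female pairs 3 and 4 the mutant was higher for 5 of 5 probes, by 0.16 to 0.49 in pair 3 and 0.11 to 0.20 in pair 4. The same pattern of signs was seen in 4.44% of all tested probes, and in 9.94% once the dye effect was removed. The 5 probes share animals and arrays, and they belong to a family of similar sequences, so they are not independent of one another. In the levels, female mutants lay above female wild type animals for all 5 probes, and male mutants lay below male wild type animals for 4 of them, with an overlap among males for H2-T23. The share of all tested probes that split this way within a sex is not given, so these counts are a description only.

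The difference between the sexes in the mutant to wild type ratio was tested as an interaction term in limma. No probe passed an adjusted p of 0.05 for it (0 of 23098, 0%), and 506 probes (2.19%) had an unadjusted p under 0.05. The interaction, female minus male, was 0.68 (SE 0.22) for H2-K1 probe 2, 0.62 (SE 0.22) for H2-D1 and 0.60 (SE 0.23) for H2-K1 probe 1, with unadjusted limma p of 0.0234, 0.0334 and 0.0433. It was 0.51 (SE 0.23) for B2m and 0.43 (SE 0.24) for H2-T23, with unadjusted limma p of 0.0699 and 0.121. The adjusted p was 1 for all 5, so the split by sex did not pass the test. Each sex held 2 pairs of animals, and the fit had 1 residual degree of freedom among arrays before the spread was shared over probes. With the scanner's processed signals the unadjusted limma p of the 5 probes lay between 0.0642 and 0.19.

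Repeated spots of H2-K1 give the spread of its ratio within an array. Over the 9 or 10 usable spots of probe 1, the log2 ratio had an SD of 0.058 in pair 1, 0.058 in pair 2, 0.089 in pair 3 and 0.071 in pair 4. The pair means were −0.47, −0.28, 0.31 and 0.15, and probe 2 of the same gene gave −0.27, −0.50, 0.49 and 0.11. In pairs 1, 2 and 3 the probes of H2-K1 thus lay farther apart than the spot SD of probe 1, which covers spots of 1 sequence within an array and no spread between probes or animals. B2m had 2 spots per array, and their ratios differed by less than 0.25 in every pair.

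**Figure D2:**
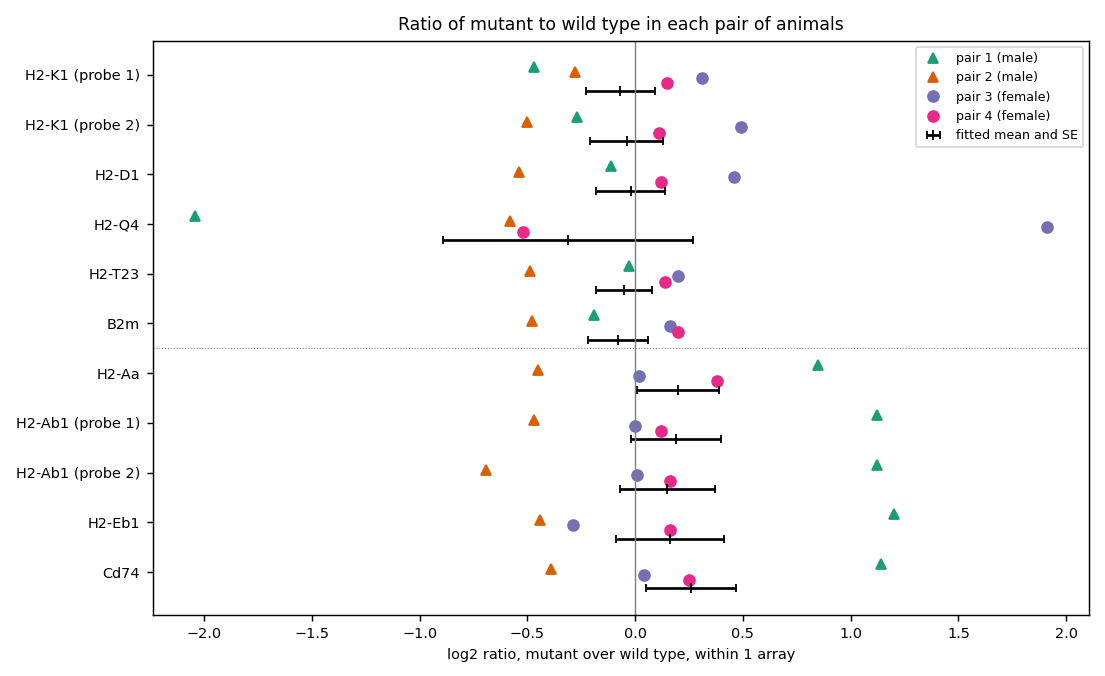
Log2 ratio of mutant over wild type within each array (horizontal axis, no dye correction) for each of the 11 probes, with triangles for the male pairs, circles for the female pairs and, in black, the fitted mean with its SE. Class I probes other than H2-Q4 lie left of 0 in male pairs and right of 0 in female pairs, class II probes lie between 0.85 and 1.20 in pair 1, and H2-Q4 spans −2.04 to 1.91.

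H2-Q4 encodes a non-classical heavy chain of the Q region. It had levels of 13.07, 15.91, 17.38 and 16.74 in mutants 1 to 4, against 15.35, 16.25, 15.71 and 17.02 in wild type animals 1 to 4. Mutant 1 was the lowest of the 8 animals and mutant 3 the highest, and the wild type animals lay between them. The animals spanned a 19.8-fold range, against 1.33-fold to 2.21-fold for the other 10 member probes. Among the 23098 probes tested, 18 had a range at least as wide, H2-Q4 included. Most of that range came from mutant 1. Without it H2-Q4 spanned 4.07-fold, against 1.30-fold to 1.53-fold for the other member probes, and 310 probes had a range at least as wide. Without pair 1 it spanned 3.17-fold, against 1.28-fold to 1.53-fold, and 236 probes had a range at least as wide. H2-Q4 was chosen on pair ratios to which these same levels belong. Its ranges and their ranks among probes are therefore a description with no test.

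The pair values that led to the choice of H2-Q4 were −2.04, −0.58, 1.91 and −0.52, so pair 3 ran against the other pairs. With the dye effect removed, they were −2.28, −0.34, 1.67 and −0.28. The fitted ratio was −0.31 (SE 0.58). It was 0.68 without pair 1 and −1.30 without pair 3, so its sign rested on pair 1. The median spot signal was 14208, 30471, 287302 and 55285 units in mutants and 21537, 190118, 28907 and 252624 units in wild type animals, on channels whose median background was 43.5 to 142.5 units. The scanner's processed signals gave the same lowest and highest animals, with 9219 units in mutant 1 and 140400 in mutant 3.

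Levels of H2-Q4 averaged 16.71 ± 0.72 in females and 15.15 ± 1.43 in males (SD, n = 4 each). The difference of 1.57 (SE 0.78) did not pass the test of the sex difference on separate channels (limma adjusted p = 0.277). For comparison, 319 of 23098 probes (1.38%) passed that test, 119 higher and 200 lower in females. The groups overlapped, since wild type 3, a female, lay below the males mutant 2 and wild type 2. The difference was 0.63 without pair 1 and 2.50 without pair 2. Over the alternatives that held both genotypes, its adjusted limma p ranged from 0.107 to 0.799. Within mutants alone it was 2.57 and within wild type animals alone 0.56. The gap between these values comes from the pair ratios on which H2-Q4 was chosen, so they are given as a description with no test.

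The level of H2-Q4 went with the share of spots well above background. That share was 38.0%, 40.9%, 45.7% and 41.5% in mutants 1 to 4 and 38.5%, 46.5%, 40.9% and 44.1% in wild type animals 1 to 4. Mutant 1 had the lowest level and the lowest share, and wild type 1 came next in both. Over the 8 animals r was 0.76 and rho 0.83, and r was 0.85 without the 2 animals farthest from the median share and 0.56 without pair 1. The animals of a pair share an array, and Cy5 channels differ from Cy3 channels in background, so these points are not fully independent. The part of this share in the H2-Q4 values was not tested.

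Many probes of unrelated genes had a profile like that of H2-Q4. Over the 8 animals, 1392 of 23098 probes (6.03%) correlated with it above r = 0.9, and 350 (1.52%) did so over the 6 animals without pair 1. The 5 named genes most like it were Fbxl12os (r = 0.999), Csf3r (0.997), Cacna1s (0.997), Irf2bp1 (0.995) and Dnajc5 (0.994), each over 8 animals that share 4 arrays. Without mutants 1 and 3, the animals farthest from the median of H2-Q4, r was 0.967 to 0.995 for the same 5 genes over 6 animals. Fold ranges over the animals were 11.2 for Fbxl12os, 6.44 for Csf3r, 4.67 for Dnajc5, 1.90 for Cacna1s and 1.36 for Irf2bp1. Without pair 1 they were 2.54 for Fbxl12os, 2.08 for Csf3r, 2.00 for Dnajc5, 1.29 for Cacna1s and 1.12 for Irf2bp1.

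Other probes of the same genes did not all share that profile. Of Dnajc5, which encodes a co-chaperone of synaptic vesicles, 2 further probes correlated with H2-Q4 at −0.889 and −0.745. The other tested probe of Cacna1s, the voltage sensor of skeletal muscle, correlated at 0.931. Both further probes of Fbxl12os, an opposite-strand transcript by its symbol, were well above background in 0 of 8 animals. H2-Q4 had a single probe, so its values could not be set against a second one.

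**Figure D3:**
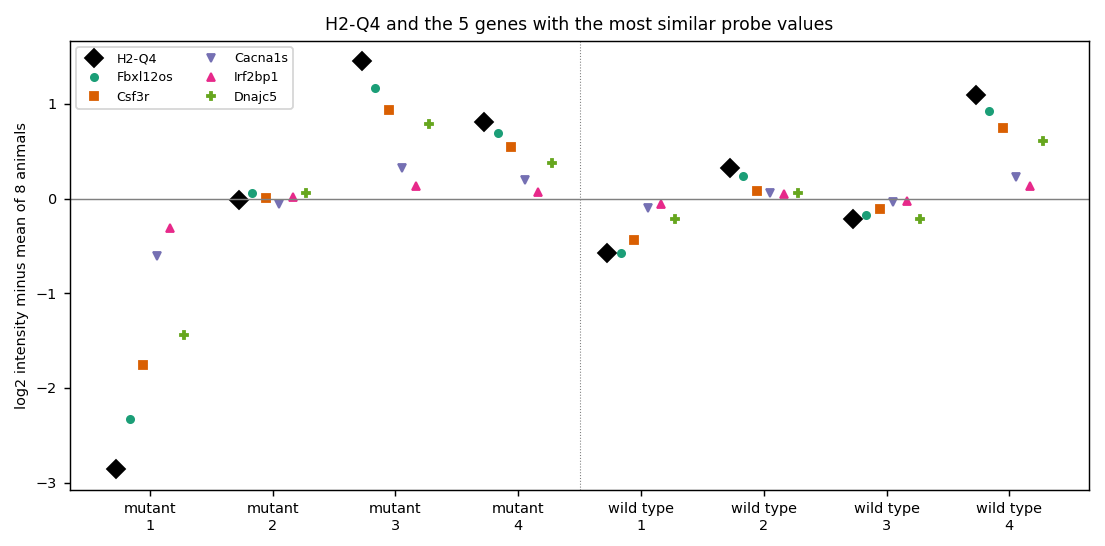
Log2 intensity minus its mean over 8 animals (vertical axis, dye effect removed) for H2-Q4 and the 5 genes with the most similar values, mutants 1 to 4 on the left and wild type animals 1 to 4 on the right. All 6 are lowest in mutant 1 and highest in mutant 3, with H2-Q4 the widest at a fold range of 19.8.

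Class II genes had another pattern, in which the mutants of pairs 1 and 4 lay above their wild type partners, with pair 1 the farthest from 0 in ratios with no dye correction. H2-Aa, the alpha chain of the I-A molecule, had levels of 8.02, 7.30, 7.09 and 7.62 in mutants and 7.40, 7.52, 7.31 and 7.01 in wild type animals. Mutant 1 was the highest of the 8 animals and mutant 4 the next, while wild type 4 was the lowest. The fitted ratio was 0.20 (SE 0.19), with 0.85 in pair 1, −0.45 in pair 2, 0.02 in pair 3 and 0.38 in pair 4. Its spot signals of 96 to 392 units were the closest to the local background among the members.

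H2-Ab1, the beta chain of I-A, had levels of 11.34, 10.82, 10.59 and 10.99 in mutants by probe A_55_P1962747 (probe 1), against 10.59, 10.92, 10.96 and 10.51 in wild type animals. Probe A_55_P2146560 (probe 2) gave 11.16, 10.25, 10.02 and 10.62 in mutants and 10.45, 10.53, 10.42 and 10.05 in wild type animals. Mutant 1 was the highest animal by both probes, and the groups overlapped. The fitted ratios were 0.19 (SE 0.21) and 0.15 (SE 0.22), and the probes followed each other over the 8 animals (r = 0.89).

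H2-Eb1 encodes the beta chain of I-E, a molecule that b haplotype mice do not display because they lack its alpha chain. Its levels were 10.48, 9.81, 9.59 and 10.18 in mutants and 9.58, 9.96, 10.18 and 9.72 in wild type animals, with a fitted ratio of 0.16 (SE 0.25). Cd74, which encodes the invariant chain, had levels of 10.29, 9.65, 9.46 and 9.99 in mutants, against 9.48, 9.71, 9.75 and 9.40 in wild type animals. The fitted ratio of Cd74 was 0.26 (SE 0.21), and none of these fits passed the test. Mutant 1 was again the highest animal for each gene, and mutant 3 lay at or near the low end.

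Across the 5 class II probes the pair ratios were 0.85 to 1.20 in pair 1, −0.69 to −0.39 in pair 2, −0.29 to 0.04 in pair 3 and 0.12 to 0.38 in pair 4. In pair 1 the mutant thus had 1.80 to 2.29 times the wild type signal, and 347 of 23098 probes (1.5%) exceeded a log2 ratio of 0.80 in that pair. With the dye effect removed, the class II medians were 0.75, −0.14, −0.37 and 0.58. After that removal pairs 1 and 4 were thus higher in the mutant, 1 of them male and 1 female, and pairs 2 and 3 were lower. Before it the medians were 1.12, −0.45, 0.01 and 0.16, so pair 3 lay near 0. For each probe the removal makes pairs 1 and 3 sum to the same value as pairs 2 and 4. A large ratio in 1 pair therefore shifts the values of the others. The median fitted ratio was 0.19 for class II, against −0.06 for class I with H2-Q4 and 0.00 for all tested probes. Without pair 1 the class II median was −0.09.

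Class II probes followed one another closely over the 8 animals, with r between 0.79 and 0.99 for 9 probe pairs of different genes, and between 0.77 and 0.96 without pair 1. Class I probes other than H2-Q4 gave r of 0.49 to 0.88, and 0.35 to 0.98 without pair 1. Between the mean class I profile (4 genes, without H2-Q4) and the mean class II profile, r was −0.26 and rho −0.07, and r was 0.23 without wild type 2 and mutant 1. Between H2-Q4 and the class II profile r was −0.77, and it was 0.01 without mutants 1 and 3, so this relation rests on those animals. These correlations describe 8 animals that share 4 arrays.

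By sex, no member differed beyond the spread between animals. The 10 member probes other than H2-Q4 had female minus male differences between −0.32 and 0.15, with limma adjusted p of 0.449 to 0.951. The farthest from 0 were H2-Ab1 probe 2 (−0.32, SE 0.26) and H2-Aa (−0.30, SE 0.22). The levels of females and males overlapped for all 11 probes, whereas they did not overlap for 23.7% of all tested probes. For class II genes the interaction of genotype and sex lay between −0.44 and 0.00, with an adjusted limma p of 1 for all 5 probes.

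Genes of the class I pathway beyond the members showed no call by genotype. Of 33 other class I heavy chains listed, 24 were on the array and 14 passed the filter on dim probes, of which 0 were called, with 8 fitted ratios above 0, 6 below 0 and a median of 0.01. The gene of this list with the smallest unadjusted p was Mr1, which presents vitamin B metabolites to MAIT cells. It had levels of 7.87, 8.11, 8.01 and 7.84 in mutants and 8.54, 8.54, 8.02 and 8.10 in wild type animals, with a fitted ratio of −0.34 (SE 0.13, limma adjusted p = 1). H2-M3, which presents formylated peptides, gave 0.14 (SE 0.10), and H2-Q5 gave 0.12 (SE 0.10). H2-M11 had the smallest p by sex, at 0.96 (SE 0.25, limma adjusted p = 0.0961). H2-M11, like H2-Q4, was lowest in mutant 1 (r = 0.88 with H2-Q4 over 8 animals). Probes of this family can bind transcripts of several near-identical genes, which the files do not resolve.

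Among genes that prepare and load class I peptides, 0 of 11 tested genes were called by genotype (median 0.02), and Tap1, a subunit of the peptide transporter, was well above background in no animal. Tap2, the other subunit, gave −0.11 (SE 0.09). Of the chaperones, Pdia3 gave 0.18 (SE 0.12) and Calr 0.09 (SE 0.09). By sex, 1 of the 11 was called, Tapbpl, a peptide editor related to tapasin. It had levels of 7.12 and 7.24 in mutant females and 6.96 and 7.09 in wild type females, against 7.67 and 7.78 in mutant males and 7.78 and 7.89 in wild type males. Every female thus lay below every male, and the levels of the sexes also did not overlap for 23.7% of all tested probes.

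Tapbpl was lower in females by a log2 difference of −0.68 (SE 0.12, n = 4 per sex, limma adjusted p = 0.0385), where 0.866% of all tested probes were called lower in females. The animals of a pair shared an array, so the 4 animals of a sex are not fully independent. The call was lost when any 1 pair was left out, with adjusted limma p of 0.0606, 0.0873, 0.148 and 0.501 without pairs 1 to 4 and differences between −0.74 and −0.62. Within mutants alone the difference was −0.54 and not called (limma adjusted p = 0.231), and within wild type animals alone it was −0.81 and called (limma adjusted p = 0.0195). With the scanner's processed signals and with the authors' deposited series table it was −1.24 (limma adjusted p of 0.0436 and 0.0413). Psmb9, an immunoproteasome subunit that cuts peptides for class I, gave −0.36 by sex (SE 0.11, limma adjusted p = 0.122) and Calr 0.21 (SE 0.10, limma adjusted p = 0.251).

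Genes that serve class II gave no call either. Of 9 tested genes of the list of partners and processing enzymes, 0 were called by genotype (median 0.01) and 0 by sex. H2-DMb1, a chain of the H2-DM molecule that helps peptides onto class II, had levels of 8.16, 7.59, 7.79 and 7.93 in mutants and 7.67, 7.49, 7.64 and 7.40 in wild type animals. Its fitted ratio was 0.32 (SE 0.12, limma adjusted p = 1), with the groups overlapping. Rfxank and Rfxap, subunits of the factor that binds the X box of class II promoters, gave 0.26 (SE 0.13) and 0.25 (SE 0.11). The lysosomal proteases Ctsl and Lgmn gave 0.37 (SE 0.11, limma adjusted p = 0.117) and 0.33 (SE 0.16, limma adjusted p = 0.275) by sex. H2-DMb2, H2-Oa, H2-Ob and Rfx5 were well above background in no animal.

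The genes whose levels were most like the class II mean were Spred1 (r = 0.991), Lamb1 (0.986), Ctss (0.981), Chchd1 (0.977) and Fbln5 (0.974), over 8 animals that share 4 arrays. Without mutant 1 and wild type 4, r was 0.940 to 0.997 for them over 6 animals. Ctss, encoding cathepsin S and a member of the class II processing list, had levels of 8.45, 7.57, 7.33 and 8.10 in mutants and 7.60, 7.80, 7.81 and 7.51 in wild type animals. Those most like the class I mean were Slc35f6 (r = 0.979), Gm1943 (0.974), Mars1 (0.971), Tmbim6 (0.968) and Osbpl3 (0.967). With the same threshold of r above 0.9, 189 probes matched the class II mean and 29 the class I mean, against 1392 for H2-Q4. Without pair 1 these counts were 113, 64 and 350.

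Interferon gamma raises class I and class II transcription in many cells, and 20 of 22 genes of its response were tested. None of the 20 was called by genotype, the median was −0.02, and Cxcl9 was well above background in no animal. Socs1, a feedback inhibitor of the pathway, was higher in the mutant of 4 of 4 pairs (0.32, 1.89, 1.11 and 0.44), with a fitted ratio of 0.94 (SE 0.25, limma adjusted p = 1). It is named for having the smallest unadjusted p of this list by genotype. Of all 23098 tested probes, 1116 were higher in the mutant in all 4 pairs. Gbp9 gave −0.25 (SE 0.09) and Irf8 −0.19 (SE 0.10). By sex the smallest unadjusted p was that of Gbp6, a guanylate-binding protein, at 1.67 (SE 0.45, limma adjusted p = 0.0983), and its probe followed H2-Q4 at r = 0.91 over the 8 animals.

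Markers of macrophages and dendritic cells had pair medians close to those of the class II members. Of 21 genes listed 20 were on the array and 11 were tested, and 10 of the 11 had fitted ratios above 0, with a median of 0.18 and 0 called. Their pair medians with the dye effect removed were 0.75, −0.12, −0.26 and 0.48, beside 0.75, −0.14, −0.37 and 0.58 for the class II probes. With no dye correction they were 0.89, −0.31, −0.14 and 0.34, beside 1.12, −0.45, 0.01 and 0.16. C1qa, a subunit of complement C1q made by macrophages, had levels of 7.78, 7.14, 6.94 and 7.64 in mutants and 6.87, 7.21, 7.20 and 6.93 in wild type animals. Mutants 1 and 4 were thus the highest animals, as they were for H2-Aa and Cd74. The defining markers Itgax, Flt3, Xcr1 and Clec9a of dendritic cells were well above background in no animal, as were Cx3cr1 and Fcgr3.

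The summed linear level of the macrophage list, leaving out the Itgam probe that varied like H2-Q4, was 2598 to 4758 units in mutants and 2375 to 3301 units in wild type animals. With Itgam it was 11213 to 53335 units in mutants and 16516 to 53685 units in wild type animals, so that single probe set the sum. Of the B cell markers, 3 were tested, with pair medians of −0.05, −0.06, 0.07 and 0.08 after the dye effect was removed, and Cd79a, Cd79b, Ms4a1, Pax5 and Fcrla were well above background in no animal. Their summed level was 1029 to 1570 units in mutants and 1079 to 1578 in wild type animals. The part of such cells in the class II values was not tested.

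Markers of other tissue parts differed in some of the same pairs. Fibroblast markers had dye-corrected pair medians of 0.72, −0.07, −0.17 and 0.62, with 11 of 12 fitted ratios above 0, 0 called, and a summed level of 42470 to 56664 units in mutants and 30857 to 52309 units in wild type animals. Blood markers gave 0.42, −0.43, 0.62 and 1.67, with a summed level of 93839 to 495279 units in mutants and 57193 to 159325 units in wild type animals. Adipocyte markers gave 0.65, −0.14, −0.16 and 0.68, with a summed level of 16446 to 22985 units in mutants and 13416 to 17787 units in wild type animals. Slow muscle markers gave −1.86, 1.04, −0.78 and −2.99, of opposite sign to class II in pairs 1, 2 and 4, with 10 of 10 fitted ratios below 0 and 0 called. Their summed level was 25749 to 58383 units in mutants and 58222 to 225657 units in wild type animals. With no dye correction the pair medians were 1.02, −0.23, 0.15 and 0.42 for fibroblast and 0.76, −0.64, 0.90 and 1.47 for blood markers. Those of adipocyte markers were 1.21, −0.89, 0.56 and 0.10, and those of slow muscle markers −2.87, 1.32, −1.69 and −2.73. Class II had 1.12, −0.45, 0.01 and 0.16. The part of these differences in tissue makeup in the class II values was not tested.

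Endothelial cells of muscle carry class I, and their 13 markers had dye-corrected pair medians of −0.17, 0.00, 0.09 and −0.04, with 0 called. Their summed level was 16934 to 19546 units in mutants and 16720 to 19693 units in wild type animals. The class I medians without H2-Q4 were −0.30, −0.35, 0.27 and 0.26 in the same pairs. Other class I heavy chains gave −0.13, −0.20, 0.07 and 0.18, with the same sign as the class I members in 4 of 4 pairs. T and natural killer cell markers gave medians between −0.02 and 0.04 over 4 tested genes, and Cd3d, Cd3g, Cd8a, Cd8b1, Gzma, Klrd1 and Ncr1 were well above background in no animal.

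**Figure D4:**
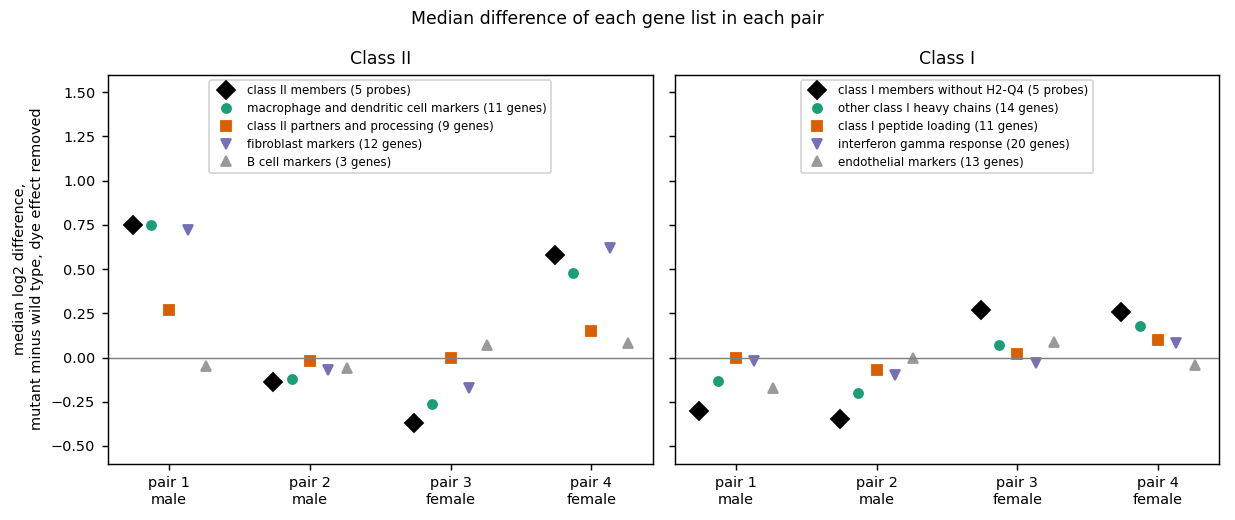
Median log2 difference of mutant minus wild type in each pair, dye effect removed (vertical axis), for the class II members with 4 related or marker lists (left) and the class I members without H2-Q4 with 4 lists (right); each symbol is the median over the tested genes of a list, and members are counted as probes. Macrophage and fibroblast markers lie close to the class II members in each pair, at 0.75 and 0.72 in pair 1 beside 0.75, and the class I members are below 0 in male pairs and above 0 in female pairs.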

How the data were processed

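The deposited scanner files hold intensity values per spot on a linear scale, read by Agilent Feature Extraction 10.7.3.1 per the submitters' processing notes, with no background subtracted from the median spot signal per the file headers. The processed intensity values in the same deposited files were background-subtracted and dye-normalized within the array per the file headers. Other deposited values, flags of 0 or 1 per spot for detection above background, saturation and outliers, served as filters. The authors' deposited series table holds log2 values, as judged from its values. Its normalization is not stated, and it held 0 columns from outside the series.

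Median signals were corrected with normexp (offset 50), normalized by loess with control and outlier spots at weight 0, and averaged over the spots of a probe in limma 3.58.1 (R 4.3.3, with version 1.17.8 of data.table). Of 55591 probes with a value on every array, those well above background in 4 or more of 8 channels were tested (23098, of which 15081 were named). Probes were named through RefSeq accessions in the gene annotation of GRCm38.p6 (27656 given 1 symbol, 28025 unnamed), used for names only because the arrays were designed on mm9. The genotype difference was fitted by lmFit and eBayes on within-array log2 ratios with a dye term, the interaction with sex in the same way, and the sex difference by lmscFit on separate channels after Aquantile normalization (intraspot correlation 0.187). P-values were adjusted by Benjamini-Hochberg over all tested probes at a threshold of 0.05, and SE is the moderated standard error. Levels are Aquantile-normalized with the probe's mean dye effect removed.

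Pairing is physical, since same-numbered animals shared an array. Across probes, the deviations from the group means of animals with 1 number correlated at 0.76, 0.57, 0.28 and 0.79. Labels name individual animals, so p-values rest on the spread between animals. The sexes were on different arrays, so the p-values by sex do not separate sex from array. The arrays were on a single slide, and no other batch was given. The members and lists were chosen with earlier results of these data known. Genes named from a list are the 3 with the smallest unadjusted p by genotype and by sex and any gene called, from which the text takes examples. Genes like a profile are the 5 with the highest Pearson r. For a gene with several probes in a list the brightest stood for it. The scripts were tested on simulated data. Promoter windows came from the RefSeq table (Python 3.11.15, pandas 2.3.3). The alternatives were another background correction, normalization, starting signal, filter, dye term and block, each pair left out, and each genotype alone for the sex difference.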

Additional observations from a re-analysis of the deposited data

How the results depend on the processing

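No member was called under any alternative for the genotype difference, the sex difference or the interaction, H2-Q4 by genotype and interaction being untested. The count of probes called by genotype was 0 in the limma fit (774 at an unadjusted p under 0.05), 23 with median centring (2 higher, 21 lower), 5 with no filter, 2 with no dye term and 4 with separate channels. It ranged from 0 to 245 when a pair was left out, with 245 without pair 3 and 5 without pair 1. With no replicate block, so without the pairing, it was 3, and 850 probes were called by sex, against 319 with the block. By sex the count was also 728 with median centring, 179 with processed signals, 554 with no filter, 2536 with no dye term, 100 within mutants, 1274 within wild type animals, and 16 to 247 when a pair was left out (54, 32 and 16 without pairs 2, 3 and 4). The left-out fits by sex kept the intraspot correlation of all 4 arrays. The interaction count was 22 with median centring and 38 with no filter, and leaving out a pair left no residual degrees of freedom for it. The tests of single members for the interaction and of Tapbpl, and the values without mutant 1 or pair 1 for ranges and correlations, with the dye effect of all 4 pairs, were added after seeing the data.

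Genotype values turned sign when a pair was left out. They ranged from −0.27 to 0.12 and from −0.23 to 0.15 for H2-K1 probes 1 and 2, −0.18 to 0.15 for H2-D1, −0.20 to 0.11 for H2-T23 and −0.25 to 0.09 for B2m. They ranged from −0.01 to 0.41 for H2-Aa, −0.09 to 0.47 and −0.13 to 0.43 for H2-Ab1 probes 1 and 2, −0.21 to 0.53 for H2-Eb1 and −0.02 to 0.54 for Cd74. For H2-Q4 the range was −1.30 to 0.68. The class I median ranged from −0.20 to 0.12 and the class II median from −0.09 to 0.47.

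Sex differences near 0 turned sign too. Within mutants they were 0.21 for H2-K1 probe 1 and 0.28 for H2-D1. Within wild type animals they were −0.24 for H2-K1 probe 2, −0.06 for H2-T23, −0.22 for B2m and 0.19 for H2-Eb1. With processed signals they were −0.06 for H2-K1 probe 2, 0.03 for H2-D1 and 0 for H2-T23. With the authors' series table they were −0.06, 0.03 and −0.01 for the same probes. With a pair left out they ranged from −0.25 to 0.07 for H2-K1 probe 1, −0.07 to 0.02 for H2-D1, −0.02 to 0.10 for B2m and −0.11 to 0.03 for H2-Eb1. With median centring the interaction was 0.08 for H2-Aa and 0.05 for H2-Ab1 probe 2. The causes were not tested. With 4 pairs, a probe needs a difference large against a spread estimated on 2 residual degrees of freedom, and dim probes such as H2-Aa lie close to background.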

Other observations

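Several genes of immune lists had probes that went apart, and these pairs were chosen after their values were seen. Of Csf1r, the receptor of the macrophage growth factor, 1 probe gave pair log2 ratios of 0.89, −0.31, −0.15 and 0.29, while another gave −0.35, 0.00, 0.52 and −0.25. They correlated with H2-Q4 at −0.93 and 0.85 over 8 animals that share 4 arrays. Of Itgam, an integrin chain of myeloid cells, 1 probe ranged over 2.99 on the log2 scale and followed H2-Q4 at r = 0.96, whereas the other probes ranged over 0.45 each and gave r of −0.49 and −0.92. Cd22, a B cell receptor with a single tested probe, ranged over 2.43 and followed H2-Q4 at r = 0.94. Which probe of such a gene follows its transcript was not tested.

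Outlying animals were looked for in each probe among the mutants, the wild type animals and the pair ratios, leaving out the pair ratios of H2-Q4, on which it was chosen. In 32 such groups of 4 values, none (0) had its highest or lowest value apart by more than the critical value of Dixon's ratio.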
